A study of Homo sapiens with 6 samples.

Results

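The comparison described here sets the MDA-MB-231 library labelled CDK16-sh2 directly against the library labelled CDK16-sh1, so that the question is which functions differ between 2 hairpins raised against the same kinase. MDA-MB-231 is a human triple-negative breast cancer cell line of mesenchymal character. The series holds 6 RNA-seq libraries in 2 experiments, a CDK16 knockdown of 3 libraries and a treatment with the kinase inhibitor rebastinib that is not used here. Both libraries compared come from cells that carry a lentiviral shRNA against CDK16, expressed from a pLKO.1-GFP backbone in lines made stable by infection and cell sorting, and the third library of that experiment carries a scramble shRNA. Of the 41471 genes in the table, 15167 averaged 1 CPM or more, the count scaled to library size, in the 2 hairpin libraries after adjustment by the trimmed mean of M-values (TMM), and these were compared. There was 1 library a side, so no difference below has a replicate check and none was tested: a log2 ratio (CDK16-sh2 over CDK16-sh1) compares these libraries, and the 95% Clopper-Pearson interval in parentheses after it covers counting error only. The sources used here mention no molecular identifiers, so reads cannot be taken as separate molecules. Differences between cultures, infections, sorts and library preparations lie outside these intervals.

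CDK16 is a PCTAIRE-type cyclin-dependent kinase, an atypical branch of the family that is switched on at the membrane by cyclin Y rather than by a cell cycle cyclin. An shRNA is cut in the cell to a short guide RNA, which directs cleavage of a transcript that matches along its whole length and can also weaken transcripts that match only the guide's seed, its bases 2 to 8. Hairpins against the same gene therefore share the intended target and can differ in their partial matches, and each stable line is also a separate infection and sort. The stretch of CDK16 matched by CDK16-sh1 is shown because the hairpin is what differs by design between the libraries. It was read from the GENCODE 29 transcript ENST00000357227.8 (GRCh38), lies on the plus strand of chromosome X, in coding sequence, and matches no other gene in that annotation, and the capitals mark the 7 target bases, 14 to 20, that pair with the guide's seed.
CDK16-sh1: gacctacattaagCTGGACAa
The CDK16-sh1 target is at chrX:47224860-47224880 in exon 5 of 16.

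The hairpin libraries were sequenced to 31955119 (CDK16-sh1) and 27499155 (CDK16-sh2) counted reads, and the scramble library to 25838443. In the same order, mitochondrial genes took 10.4%, 16.2% and 11.3% of the counts, and the 100 most abundant genes 24.99%, 31.3% and 25.8%, so both shares were highest in CDK16-sh2. Most listed markers of the line were present in both hairpin libraries. Vimentin (VIM) had 137281 and 97290 counts (log2 ratio -0.09), CD44 22882 and 22402 (0.37), AXL 33827 and 24296 (-0.07) and EGFR 7954 and 5791 (-0.05). ZEB1 had 1106 and 1163 counts (0.48) and CAV1 5789 and 3420 (-0.36). LOX was at least 2-fold lower in CDK16-sh2, at 371 and 123 counts and -1.18 (-1.50 to -0.89). The estrogen and progesterone receptor genes ESR1 and PGR had at most 3 counts and E-cadherin (CDH1) at most 5. SPARC, listed as a marker that should be present, had only 15 and 1 counts, while KRT19 at 10961 and 8336 counts, ERBB2 at 1876 and 1520 and GATA3 at 390 and 161 were listed as low or absent and were measured in both. EPCAM, also listed as low or absent, had 125 and 209 counts at 1.13 (0.82 to 1.48). Of the 11 listed markers of blood and endothelium, only 2 passed the filter, and the highest count was 85 and 13 for PECAM1. In bulk RNA, fewer cells in a state and less RNA per cell cannot be told apart.

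CDK16 itself differed little between the hairpins. It had 1360 counts in CDK16-sh1 (39.9 CPM) against 846 in CDK16-sh2 (32.8 CPM) and 3223 in the scramble library, a log2 ratio between the hairpins of -0.28 (-0.41 to -0.16), which is a 1.21-fold lower level in CDK16-sh2. Against the scramble library, scaled over all 3, the log2 ratio was -1.54 for CDK16-sh1 and -1.82 for CDK16-sh2, so the target was low in both. Of the kinases closest to CDK16, CDK14 (107 and 133 counts) and CDK17 (331 and 419 counts) had ratios of 0.71 (0.34 to 1.10) and 0.74 (0.53 to 0.96), and CDK15 and CDK18 were below the filter. The activating cyclins were near even, with CCNY at 2119 and 1514 counts and a ratio of -0.08 (-0.18 to 0.01) and CCNYL1 at 698 and 438 counts and -0.27 (-0.44 to -0.09). PRC1, a microtubule cross-linker of the central spindle that the study connects with CDK16, had 6584 and 7323 counts, a ratio of 0.56 (0.51 to 0.61). RB1, the retinoblastoma gene, had 589 and 729 counts, a ratio of 0.71 (0.55 to 0.87).

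Across all genes, 2284 of 15167 (15.1%) differed at least 2-fold between the hairpins, 1027 higher in CDK16-sh2 (6.77%) and 1257 lower (8.29%). The median log2 ratio was 0.02 with quartiles of -0.44 and 0.45, and 62.2% of genes were within 1.5-fold. The split between directions moved with the scaling. Scaled by library totals, 624 genes were higher and 1828 lower with the median of all genes at -0.17, and in the authors' RPKM 507 were higher and 1653 lower with the median at -0.16. Ratios, 2-fold calls and counts above or below 0 are given as measured by TMM, and only the rule for shifted lists is relative to the median of all genes. At 4-fold the counts were 79 higher and 182 lower, so the larger differences lay more often on the lower side. The counting interval excluded a ratio of 0 for 5877 genes higher and 5509 lower, and it lay wholly past 2-fold for 533 and 708. Just past the 2-fold threshold stood EIF1B, lower at 1357 and 512 counts, and PCDH9, higher at 65 and 100. Just short of it stood ANKH, lower at 960 and 362 counts, and FAM177A1, higher at 2244 and 3392.

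**Figure D1:**
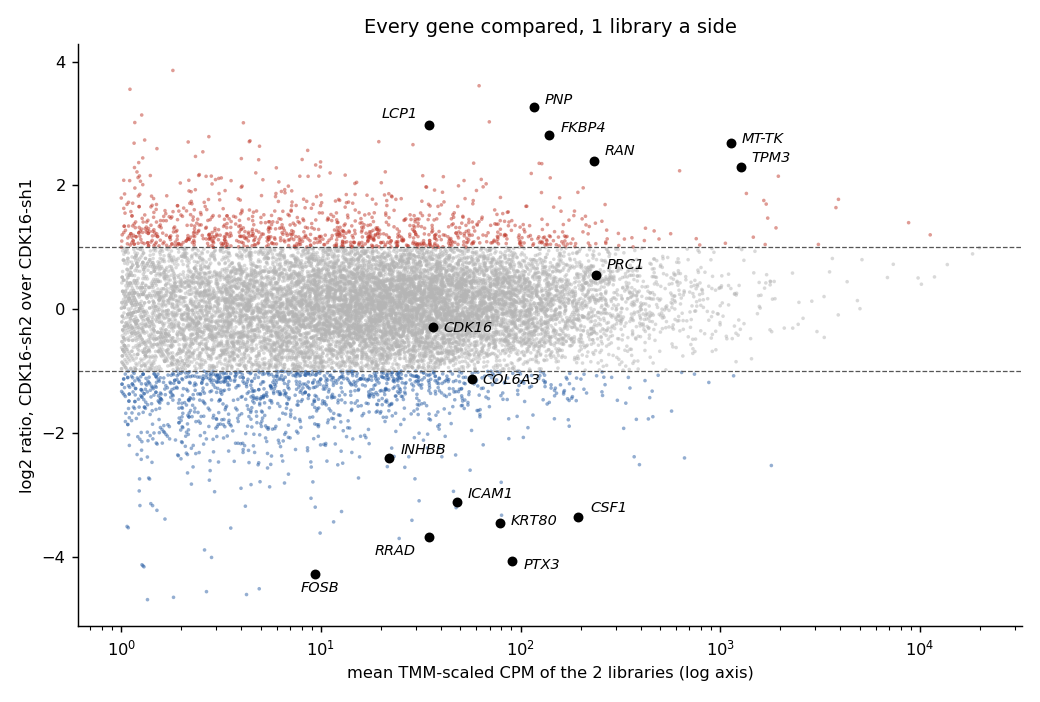
Log2 ratio of CDK16-sh2 over CDK16-sh1 (vertical axis) against the mean TMM-scaled CPM of both libraries (horizontal log axis), 1 point a gene, red and blue for genes at least 2-fold higher or lower in CDK16-sh2 and dashed lines at 2-fold. CDK16 lies in the grey band at -0.28, INHBB and COL6A3 lie below the lower line at -2.41 and -1.13, and PTX3, FOSB, CSF1 and PNP lie far outside it.

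The genes lowest in CDK16-sh2, ranked by the interval bound nearest 0 among genes of at least 5 CPM, were PTX3, FOSB, RRAD, COPRS, KRT80, CSF1, UCN2, TINAGL1, NR2F6, IL7R, IGFBP3 and ICAM1. PTX3, a secreted pentraxin of innate immunity on chromosome 3 (157436789 to 157443628), had 5857 counts in CDK16-sh1 against 261 in CDK16-sh2 and 2353 in the scramble library, a ratio of -4.08 (-4.27 to -3.91) or 16.9-fold. CSF1, the macrophage growth factor on chromosome 1 (109910242 to 109930992), had 12017, 883 and 4740 counts, a ratio of -3.36 (-3.46 to -3.26). Both had the scramble level between those of the hairpins. ICAM1, the leukocyte adhesion receptor, went from 2941 to 256 counts at -3.11 (-3.31 to -2.93), and IL7R, the interleukin-7 receptor chain, from 725 to 49 at -3.44 (-3.93 to -3.07). FOSB, an AP-1 subunit, had 605 counts in CDK16-sh1 but only 22 in CDK16-sh2 and 39 in the scramble library, and RRAD, a small Ras-like GTPase, had 2194, 127 and 271. In these last genes CDK16-sh1 alone was high. The other members were the epithelial keratin KRT80 (4938 and 339 counts), the PRMT5 adaptor COPRS (1564 and 89), the peptide hormone UCN2 (627 and 37), the matricellular protein TINAGL1 (4985 and 373), the orphan nuclear receptor NR2F6 (1783 and 125) and IGFBP3, which binds insulin-like growth factors (2928 and 238), with ratios from -3.71 for COPRS to -3.21 for IGFBP3. ICAM1 overlaps an antisense gene, CTD-2369P2.8, that was also low in CDK16-sh2 at 578 and 46 counts, and NR2F6 overlaps AC010646.3 at 177 and 4. A second antisense gene, CTD-2369P2.5, overlaps ICAM1 over more bases (14274 against 815) and was not low, at 2243 and 2194 counts.

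The 12 genes highest in CDK16-sh2 by the same ranking took in PNP, CDC26, LCP1, FKBP4, RAN and TPM3. PNP, purine nucleoside phosphorylase on chromosome 14 (20468954 to 20477094), had 747 counts in CDK16-sh1 against 5441 in CDK16-sh2 and 2860 in the scramble library, a ratio of 3.26 (3.16 to 3.38) or 9.61-fold. LCP1, the actin bundler L-plastin, had 265, 1585 and 758 counts, a ratio of 2.97 (2.80 to 3.18), and CDC26, a subunit of the anaphase-promoting complex, had 518, 3204 and 1545, a ratio of 3.03 (2.90 to 3.17). In these 3 genes the scramble level was between the hairpins and, on the log2 scale, nearer CDK16-sh2. FKBP4, a cochaperone of HSP90, had 1188, 6293 and 4130 counts, RAN, the GTPase of nuclear transport, 2524, 10070 and 7618, and the tropomyosin gene TPM3 14635, 54348 and 47364, with ratios of 2.81, 2.40 and 2.30. Their scramble levels were also between the hairpins and nearer CDK16-sh2 than CDK16-sh1. MFN1, which fuses mitochondria (175 and 873 counts), and ZMYND11, a reader of methylated histone H3 (268 and 1288), had ratios of 2.71 and 2.66, with 850 and 1625 counts in the scramble library. TMA7 (1426 and 5507) and the mitochondrial lysine tRNA gene MT-TK (10334 and 50347) were also in the list. RP11-203M5.8 (318 and 2955 counts) lies inside PNP and RP11-24C3.2 (1379 and 5346) overlaps TMA7 by 3857 bases, each on the opposite strand, and the strand setting of the counting is not given in the sources used here, so neither can be told apart from its partner. CDC26 overlaps SLC31A1 (752 and 969 counts) and PRPF4 (1972 and 2839). FKBP4 overlaps RP4-816N1.7 (134 and 472), RP4-816N1.6 (56 and 49) and RP11-885B4.1 (65 and 100).

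The ratio followed the base composition of the transcripts. Across 15034 genes with a known sequence it correlated with GC content at Pearson r = -0.29 (Spearman rho = -0.32) and with log2 gene length at 0.11, correlations across genes that share 2 libraries. The quintile of genes poorest in GC had a median log2 ratio of 0.30 with 10.4% of its genes 2-fold higher and 4.66% lower in CDK16-sh2, and the richest quintile had a median of -0.31 with 2.39% higher and 14.1% lower. For each list below, a second median is given after a smooth trend on GC content and length was taken out, and the part of base composition in any single gene's difference was not tested. The median of all genes was 0.06 after that step, and 967 genes were then 2-fold higher and 1048 lower.

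**Figure D2:**
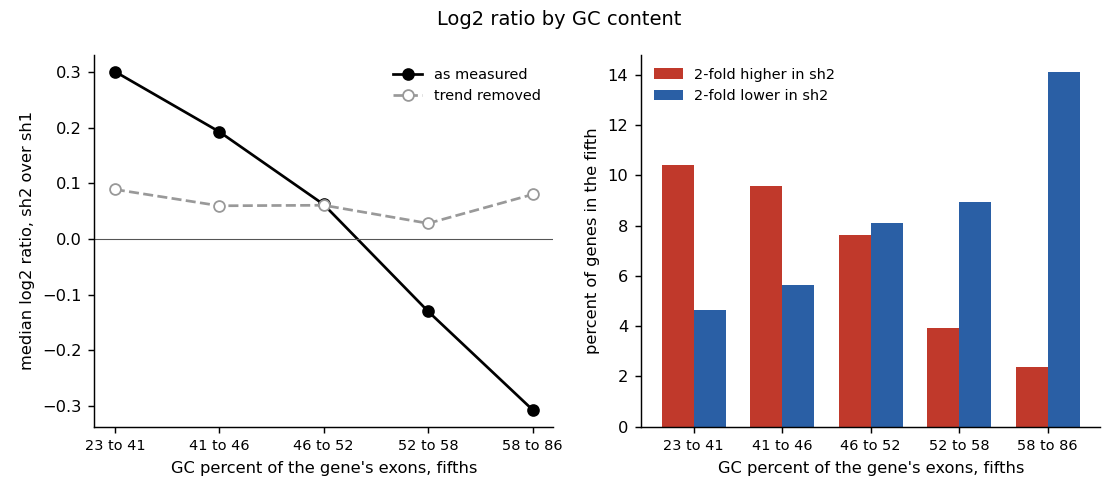
Median log2 ratio of CDK16-sh2 over CDK16-sh1 (left) and percent of genes at least 2-fold higher or lower in CDK16-sh2 (right, bars from 0) in quintiles of genes by the GC percent of their longest transcript. The measured medians descend from 0.30 to -0.31 along the quintiles, and the medians after the trend was removed stay between 0.03 and 0.09.

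To describe functions, 48 lists of genes were laid over the ratio, and 45 of them had at least 10 genes compared. A list was called shifted where its median lay at least 0.3 from the median of all genes both before and after the GC and length trend was removed, which is a rule of size and not a test. By that rule 10 lists were shifted lower in CDK16-sh2 and 2 were shifted higher, 6 were shifted only before the trend was removed, and 27 were not shifted. A gene can stand in more than 1 list, so the lists are not separate counts. The E2F list and the Rb and G1/S list have the same lowest ratio, -2.10. The lower lists were immediate-early genes, cytokines, NF-kB genes, interferon-stimulated genes, YAP and TEAD targets, matrix glycoproteins, E2F targets, Rb and G1/S genes, keratins and clustered histones, and the higher lists were sterol and fatty acid synthesis and the mitochondrial genome. Lists on housekeeping machinery were near the median of all genes, with medians of -0.12 for 83 cytosolic ribosomal proteins, -0.03 for 43 proteasome genes and 0.10 for 38 autophagy genes. Counts of 2-fold calls within a list stand against the 6.77% of all genes called higher and the 8.29% called lower.

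**Figure D3:**
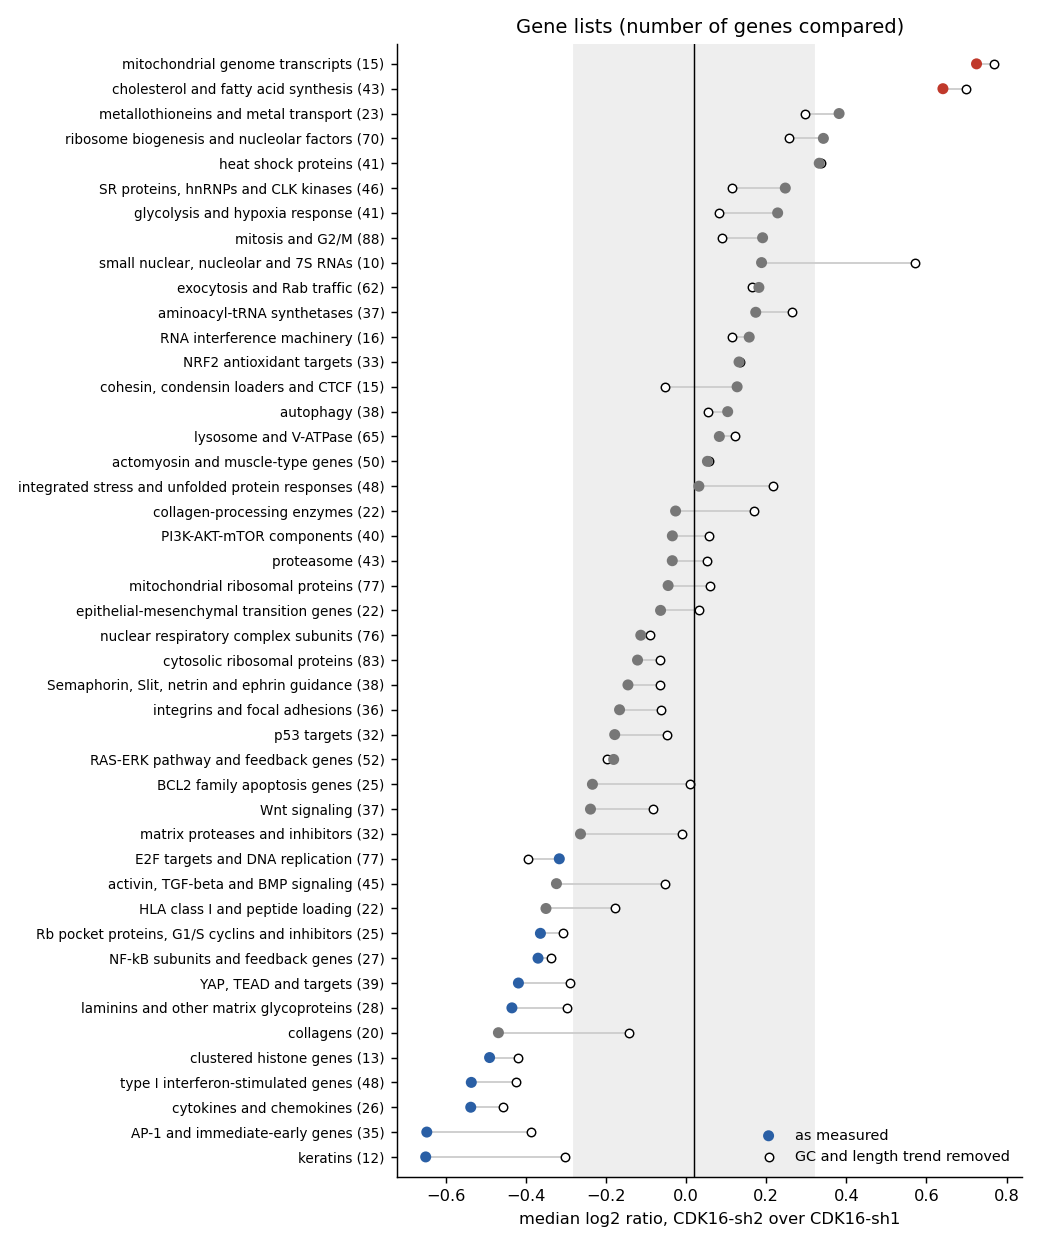
Median log2 ratio of CDK16-sh2 over CDK16-sh1 for the 45 lists (number of genes compared in parentheses), filled points as measured and open points after the GC and length trend was removed. The line is the median of all genes at 0.02 and the band reaches 0.3 to either side, with blue and red points for the 10 lists shifted lower and the 2 shifted higher.

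Immediate-early genes, which switch on within minutes of growth factor or stress signals and encode AP-1 and EGR transcription factors, were lower in CDK16-sh2. Of 35 compared, 10 were 2-fold lower and none higher, 29 had a ratio below 0, and the median was -0.65 (-0.39 with the trend removed). EGR1 had 2786 counts in CDK16-sh1 against 272 in CDK16-sh2 and 567 in the scramble library, a ratio of -2.94 (-3.14 to -2.77). DUSP1, a phosphatase that quenches MAP kinases, had 2194, 350 and 563 counts at -2.24 (-2.41 to -2.08), and the AP-1 subunit JUNB 3638, 600 and 721 at -2.19 (-2.32 to -2.07). FOS had 162, 21 and 82 counts and ATF3 354, 56 and 85. The scramble level was nearer CDK16-sh2 in EGR1, DUSP1, JUNB and ATF3 and nearer CDK16-sh1 in FOS, and over the list the median against the scramble library was 0.63 for CDK16-sh1 and 0.05 for CDK16-sh2. The AP-1 subunits FOSL1 (60375 and 51293 counts, 0.17) and JUND (1978 and 2055 counts, 0.46) did not follow FOSB and JUNB, and JUN (14711 and 7098 counts) was at -0.65. In the RAS-ERK list, 9 of 52 genes were 2-fold lower and 1 higher at a median of -0.18, which is not a shift, with the feedback inhibitor SPRY1 at 423 and 65 counts and the ETS factor ETV4 at 3085 and 598.

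Cytokines and the NF-kB pathway, the transcription factor system that drives many inflammatory genes, were lower as well. Of 26 cytokine and chemokine genes compared, 9 were 2-fold lower and 2 higher, at a median of -0.54 (-0.46 with the trend removed). After CSF1, the lowest ratios were those of IL11 with 2311 and 333 counts at -2.39 (-2.56 to -2.22), CSF2 with 1332 and 192 at -2.38 (-2.62 to -2.17), IL24 with 86 and 13 at -2.18 and IL6 with 753 and 149 at -1.92 (-2.20 to -1.68). The chemokine CXCL1 had 5040 and 1145 counts at -1.73. The list was not uniform, since IL1B had 86 and 242 counts at 1.87 (1.54 to 2.27), CXCL3 had 205 and 441 (interval 1.27 to 1.75), and CXCL8 was near even at 1048 and 951. Of the 27 NF-kB subunits and feedback genes, 6 were 2-fold lower and none higher, at a median of -0.37 (-0.34 with the trend removed). TNFAIP2 had 2306 and 418 counts, RELB 1837 and 405 and the inhibitor NFKBIE 1620 and 423, with ratios of -2.06, -1.77 and -1.53. The subunit NFKB2 had 9016 and 2557 counts at -1.41, while RELA (5122 and 4206 counts, 0.12) and REL (239 and 216 counts, 0.26) were near even. Against the scramble library the median of the NF-kB list was 0.53 for CDK16-sh1 and 0.09 for CDK16-sh2.

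Interferon-stimulated genes are the antiviral genes that type I interferon induces through STAT and IRF factors. This list had the largest number of genes 2-fold lower but not the largest share. That share was 29.2%, against 50% of keratins, 34.6% of cytokines and 30.8% of clustered histones. Of 48 compared, 14 were 2-fold lower and none higher, at a median of -0.54 (-0.42 with the trend removed). SAMD9L had 843 counts in CDK16-sh1 against 192 in CDK16-sh2 and 862 in the scramble library, a ratio of -1.72 (-1.96 to -1.50). IFITM3, which blocks entry of viruses, had 8581, 2376 and 3387 counts at -1.45 (-1.52 to -1.38), and its neighbour IFITM2 2772, 715 and 1134 at -1.55 (-1.67 to -1.43). OASL had 369 and 85 counts, IFIT1 865 and 264, and the transcription factor IRF1 2224 and 687. The RNA sensor DDX58 was not among them, at 1124 and 1022 counts. The list's median against the scramble library was -0.07 for CDK16-sh1 and -0.40 for CDK16-sh2. The members IFITM1, IFITM2 and IFITM3 are near-identical copies, so their counts are uncertain between them. In the HLA class I list, 3 of 22 genes were 2-fold lower and none higher, the peptide transporter TAP1 (2578 and 695 counts) and the immunoproteasome subunits PSMB10 (1193 and 371) and PSMB9 (845 and 287), and its median of -0.35 became -0.18 with the trend removed.

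Promoter windows from RefSeq (GRCh38.p14, 250 bases before to 50 after the start) were matched for 10039 of the 15167 genes and searched on both strands for 7 motifs. The interferon response element, TTTC followed by any 2 bases and TTTC again, was in 24 of 37 windows of interferon-stimulated genes (64.9%), in 4.09% of 733 windows of genes 2-fold lower, in 1.39% of 647 windows of genes 2-fold higher and in 2.80% of all 10039 windows. The kappaB motif was in 8 of 24 windows of the NF-kB list and 6 of 16 of the cytokine list, in 8.87% of lower, 5.26% of higher and 6.57% of all windows. The CArG box of serum response factor was in 2.18%, 0.773% and 1.05%, the AP-1 motif TGANTCA in 6.55%, 5.41% and 4.65%, and the TEAD motif GGAATG in 13.6%, 9.43% and 10.9%. Of 24 windows of the immediate-early list, only 2 held the CArG box and 1 the AP-1 motif. The TEAD motif was in 8 of 31 windows of the YAP and TEAD list. The E2F motif TTTCCCGC was in 14 of 64 windows of the E2F list but in 2.32% of lower, 1.24% of higher and 2.67% of all windows, and the sterol motif CACCCCAC in 4.50%, 2.01% and 2.59%. Only 2 of 35 windows of the sterol and fatty acid list held the sterol motif. Members of a list share a motif in part because such motifs are how these pathways are known, so the shares describe the windows and do not show binding. Stretches upstream of 6 genes lower in CDK16-sh2 are given because they hold a motif searched for here, in capitals.
IFIT1, chr10:89392467-89392569, plus strand, interferon response element: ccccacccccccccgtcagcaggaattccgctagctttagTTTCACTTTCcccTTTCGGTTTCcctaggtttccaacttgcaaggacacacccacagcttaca
IFITM3, chr11:320861-320952, minus strand, interferon response element: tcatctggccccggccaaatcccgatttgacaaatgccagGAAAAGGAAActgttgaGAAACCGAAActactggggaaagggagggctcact
IFI6, chr1:27672236-27672388, minus strand, interferon response element: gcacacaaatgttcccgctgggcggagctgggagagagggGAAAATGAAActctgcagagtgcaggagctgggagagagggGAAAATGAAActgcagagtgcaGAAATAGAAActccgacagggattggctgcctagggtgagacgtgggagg
IL6, chr7:22727087-22727176, plus strand, kappaB: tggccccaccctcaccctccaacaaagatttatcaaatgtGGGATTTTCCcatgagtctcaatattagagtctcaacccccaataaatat
CXCL1, chr4:73869274-73869364, plus strand, kappaB: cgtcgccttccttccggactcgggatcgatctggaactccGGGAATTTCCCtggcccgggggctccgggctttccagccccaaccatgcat
EGR1, chr5:138465334-138465445, plus strand, CArG box: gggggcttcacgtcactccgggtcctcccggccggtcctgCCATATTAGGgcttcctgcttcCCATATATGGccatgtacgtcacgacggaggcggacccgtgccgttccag

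YAP and its TEAD partners drive genes of adhesion and growth, and this list was lower in CDK16-sh2 too. Of 39 genes, 10 were 2-fold lower and none higher, at a median of -0.42 (-0.29 with the trend removed). Tissue factor (F3) had 17019 and 4487 counts at -1.52 (-1.57 to -1.47), the cardiac ankyrin repeat gene ANKRD1 22234 and 6707 at -1.33 (-1.36 to -1.29), and AJUBA, a LIM protein of the Hippo pathway, 8069 and 2447 at -1.32. CTGF had 12645 and 4100 counts at -1.22, CYR61 52635 and 22080 at -0.85 and YAP1 itself 2934 and 1311 at -0.76. Matrix genes stood beside them. Of 28 laminins and other matrix glycoproteins, 6 were 2-fold lower, with thrombospondin-1 (THBS1) at 20079 and 4415 counts and matrilin-2 (MATN2) at 592 and 96, and 1 was higher, tenascin-C (TNC) at 2809 and 7861 counts, for a median of -0.44 (-0.30 with the trend removed).

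The collagens and the activin and TGF-beta family, which INHBB and COL6A3 belong to, were lower before the trend was removed and near the other genes after it. INHBB, which encodes the beta-B subunit of activin and inhibin on chromosome 2 (120346143 to 120351808), had 1265 counts in CDK16-sh1 against 179 in CDK16-sh2 and 2001 in the scramble library. Its ratio between the hairpins was -2.41 (-2.65 to -2.19) and -2.13 with the trend removed, and both hairpin libraries were below the scramble library. COL6A3, a chain of collagen VI on chromosome 2 (237324003 to 237414375), had 2671, 924 and 5546 counts, a ratio of -1.13 (-1.24 to -1.02) that was the same with the trend removed. Of 20 collagens compared, 6 were 2-fold lower and 3 higher, at a median of -0.47 that became -0.14. COL7A1, the anchoring fibril collagen, had 22861 and 3025 counts at -2.51 (-2.57 to -2.46) and COL6A1 3566 and 903 at -1.58, whereas COL27A1 (576 and 1145 counts) and COL1A1 (318 and 602) were at 1.39 and 1.32. Of 45 activin, TGF-beta and BMP genes, 9 were 2-fold lower and 2 higher, and the median of -0.32 became -0.05. The lower members took in the activin antagonist follistatin (FST, 1536 and 196 counts, -2.56), the latency protein LTBP3 (484 and 76) and the type I receptor TGFBR1 (1055 and 374). The type II receptor TGFBR2 (1964 and 3831 counts, 1.37) and the target TGFBI (359 and 647, 1.25) were higher, and INHBA, the beta-A subunit, had 246 and 288 counts at 0.63.

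Matrix proteases split in both directions with no shift of the list. Of 32 proteases and inhibitors, 8 were 2-fold lower and 6 higher, at a median of -0.26 (-0.01 with the trend removed). The inhibitor TIMP3 had 21222 and 3068 counts at -2.39 (-2.44 to -2.33), while interstitial collagenase (MMP1) had 19809 and 54723 at 1.87 (1.85 to 1.89) and the urokinase receptor PLAUR 5376 and 9851 at 1.28 (1.23 to 1.33).

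The list of DNA replication genes was shifted lower in CDK16-sh2 by its median, and the list of mitosis genes was not shifted. Of 77 E2F targets and replication genes, which are transcribed as cells enter S phase, 9 were 2-fold lower (11.7%, near the 8.29% of all genes) and 1 higher, 54 had a ratio below 0, and the median was -0.32 (-0.39 with the trend removed). E2F8 had 464 counts in CDK16-sh1 against 103 in CDK16-sh2 and 604 in the scramble library, a ratio of -1.75 (-2.09 to -1.46), thymidine kinase (TK1) 7324, 2096 and 3636 at -1.40 (-1.47 to -1.33), and E2F1 2542, 707 and 1303 at -1.44 (-1.56 to -1.32). Against the scramble library the median was -0.47 for CDK16-sh1 and -0.67 for CDK16-sh2, so the list's median was low in both hairpin libraries. Unlike that median, TK1 and E2F1 were above the scramble library in CDK16-sh1. Scaled over 3 libraries, TK1 was at 220 CPM against 134 and E2F1 at 76.4 against 48.1. Of 25 Rb pocket proteins, G1/S cyclins and inhibitors, 4 were 2-fold lower and 2 higher, at a median of -0.36 (-0.31 with the trend removed). The E2F partner TFDP1 had 4602 and 1017 counts at -1.77 (-1.87 to -1.68) and cyclin D1 (CCND1) 19766 and 6709 at -1.15 (-1.20 to -1.12). SKP2, which marks p27 for degradation, had 337 and 658 counts at 1.36, and the pocket protein gene RBL2 169 and 336 at 1.38. Of 88 genes of mitosis and the G2/M phases, 4 were 2-fold higher and 2 lower at a median of 0.19 (0.09 with the trend removed), with cyclin B1 (CCNB1) at 6930 and 5242 counts, a ratio of 0.00.

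Sterol and fatty acid synthesis gave the largest group on the higher side. Of 43 genes, 16 were 2-fold higher and 3 lower, 35 had a ratio above 0, and the median was 0.64 (0.70 with the trend removed). INSIG1, a sensor that holds back SREBP transcription factors when sterols are plentiful and is itself an SREBP target, had 516 counts in CDK16-sh1 against 1726 in CDK16-sh2 and 542 in the scramble library, a ratio of 2.14 (2.00 to 2.29). MSMO1, a sterol oxidase, had 319, 713 and 233 at 1.56 (1.37 to 1.76). ACSL4, which activates polyunsaturated fatty acids, had 1417, 3127 and 2915 counts at 1.54 (1.45 to 1.64). HMGCS1 (397 and 797 counts), FDFT1 (1131 and 2140), IDI1 (676 and 1189) and SQLE (210 and 337) were also 2-fold higher. Fatty acid synthase (FASN) was at 0.39 with 8584 and 8523. The lower members were the acetyl-CoA synthetase ACSS2 (979 and 265 counts), the cholesterol exporter ABCA1 (304 and 90) and TM7SF2 (182 and 67). Against the scramble library the list's median was -0.27 for CDK16-sh1 and 0.21 for CDK16-sh2.

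The list of mitochondrial genome transcripts, which holds protein and ribosomal RNA genes, had 15 of 15 ratios above 0, with 4 at least 2-fold higher and a median of 0.73 (0.77 with the trend removed), in the library with the larger mitochondrial share. The values ran from 0.27 for the ribosomal RNA gene MT-RNR1 (11219 and 10224 counts) to 1.77 for MT-ND4L (60298 and 155937). The 22 mitochondrial tRNA genes outside the list went both ways, with 4 at least 2-fold higher and 2 lower, MT-TA (3287 and 743 counts) and MT-TN (5347 and 1681). The nuclear respiratory subunits had a median of -0.11 over 76 genes, with 1 higher and 3 lower. Metallothioneins and metal transporters were 2-fold higher in 7 of 23 genes and lower in 1, with a median of 0.38 that became 0.30 and so missed the rule once the trend was removed. MT2A, the main metal-binding metallothionein of the list, had 62873 and 148229 counts at 1.64 (1.63 to 1.65), against 53210 in the scramble library. The zinc transporters SLC39A6 (1202 and 3180 counts, 1.81) and SLC39A1 (6029 and 1390, -1.71) differed in opposite directions, and the iron exporter SLC40A1 had only 30 and 90 counts at 1.91. Metallothionein genes are near-copies of each other, so counts between MT2A, MT1E (1635 and 2854) and MT1X (857 and 1325) are uncertain. Ribosome biogenesis factors had 6 of 70 genes 2-fold higher (8.57%, near the 6.77% of all genes) and none lower, led by the helicase DDX21 (4464 and 8843 counts, 1.39), at a median of 0.34 (0.26 with the trend removed). Heat shock proteins had 2 of 41 in each direction at 0.33 (0.34 with the trend removed), with HSPA8 at 37386 and 58300 counts (1.04) and HSPB1 at 4289 and 1177 (-1.46). The heat shock list missed the rule with the trend removed, when its median was 0.27 above that of all genes.

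Keratins were 2-fold lower in 6 of 12 genes and higher in 1, at a median of -0.65 (-0.30 with the trend removed). KRT7 had 29494 and 7115 counts at -1.65 and KRT10 1826 and 549 at -1.33, while KRT15 had 199 and 628 at 2.05 and KRT8 and KRT18 were near even at -0.07 and -0.28. Among clustered histone genes, 4 of 13 were higher and 4 lower. The linker histone HIST1H1C (902 and 2305 counts, 1.75) and HIST1H4I (564 and 1171, 1.45) were higher, while 3 of the 4 lower members, HIST2H2BE (86 and 16), HIST1H2BC (68 and 15) and HIST1H2BJ (49 and 17), had under 100 counts. The list median of -0.49 turned when only genes of at least 5 CPM were kept. Both families hold near-identical copies that share reads.

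**Figure D4:**
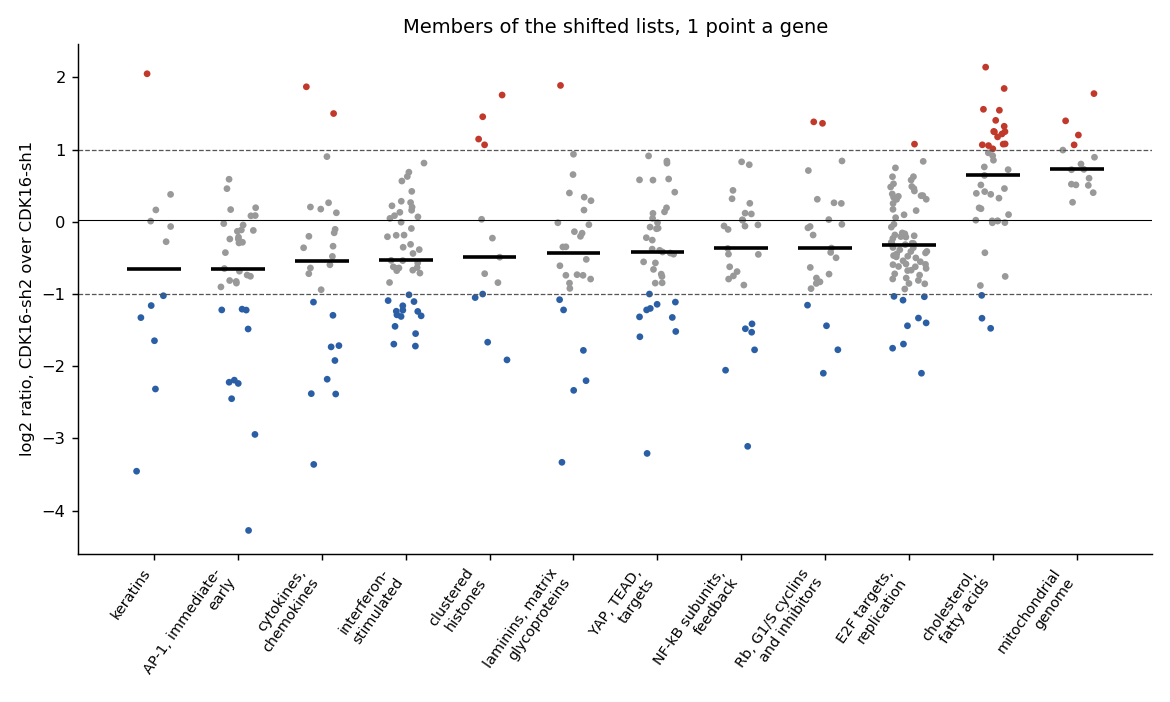
Log2 ratio of CDK16-sh2 over CDK16-sh1 for each gene of the 12 shifted lists, 1 point a gene, red and blue past 2-fold (dashed lines) and a black bar at each list's median. The immediate-early, interferon-stimulated, NF-kB and YAP lists hold points 2-fold lower and none 2-fold higher, and the sterol list has 16 points above the upper line.

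The scramble library, which entered no call, was between the hairpins in 5626 of all 15167 genes, and it was nearer CDK16-sh2 in 55.3% of them all and nearer CDK16-sh1 in 44.7%. Genes called for a difference between the hairpins leave more room for another library between them, so the counts that follow are a description. Of the 1027 genes higher in CDK16-sh2 it was between in 762 and nearer CDK16-sh2 in 697 (67.9%), and of the 1257 genes lower it was between in 895 and nearer CDK16-sh1 in 742 (59.0%). For the higher genes the median against the scramble library was -0.87 for CDK16-sh1 and 0.43 for CDK16-sh2, and for the lower genes it was 0.57 and -0.88. These values share the scramble library and are set side by side only.

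**Figure D5:**
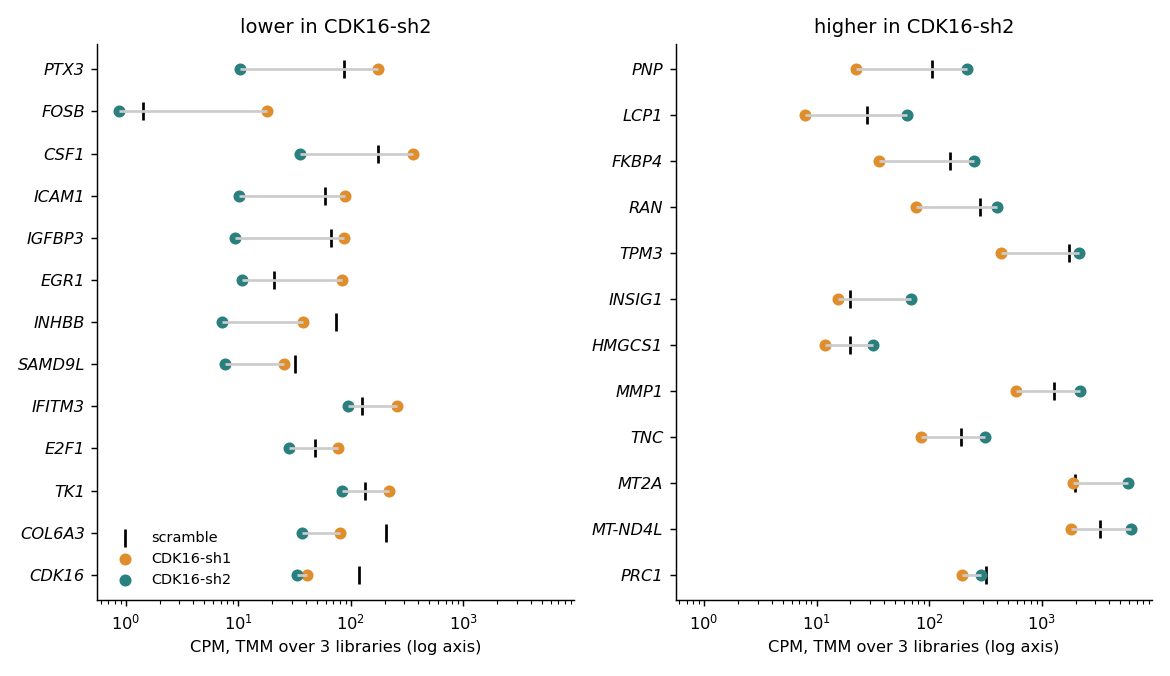
CPM scaled by TMM over 3 libraries (log axis) in CDK16-sh1 (orange), CDK16-sh2 (teal) and the scramble library (black tick) for 13 genes lower and 12 higher in CDK16-sh2. The tick for FOSB, EGR1 and IFITM3 is nearer the teal point, that for PTX3, CSF1, ICAM1 and IGFBP3 nearer the orange point, and for CDK16, INHBB and COL6A3 it is above both hairpins.

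By position, the medians of the nuclear chromosomes lay between -0.25 for chromosome 19 and 0.19 for chromosome 13, and chromosome 19, which is rich in GC, came to -0.01 once the trend was removed. By annotated type, 12272 protein-coding genes had a median of 0.04, 309 processed pseudogenes -0.34 with 66 lower and 24 higher, and 46 small nucleolar RNA genes 0.63 with 12 higher and 1 lower. Pseudogenes share reads with their parent genes, and small nucleolar RNAs lie within introns of host genes, so both types are uncertain. By seed site in the 3' untranslated region, the median was 0.02 for 1125 genes with the CDK16-sh1 site alone. It was 0.18 for 1084 with the CDK16-sh2 site alone, 0.07 for 333 with both and 0.03 for 9060 with neither. With the trend removed these medians were 0.06, 0.05, -0.05 and 0.07, and an effect of seed matches was not tested.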

How the data were processed

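Per the labels and the authors' methods, RNA of MDA-MB-231 lines carrying shRNA was sequenced on a HiSeq X 10, and the submitters' notes name Trimmomatic, featureCounts of Subread 1.5.1 and GRCh38. The aligner, annotation and strand setting are not given in the sources used here. The deposited tables hold raw read counts per gene symbol and RPKM that the authors calculated from counts, gene length and library total, with 1 library per column and replicates absent. Of the symbols, 28 had been turned into dates and are not named.

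From the counts, log2 ratios of TMM-scaled CPM (edgeR 4.0.16, prior count 2) were computed for genes averaging 1 CPM or more, with effective library sizes of 34094960 (CDK16-sh1) and 25773274 (CDK16-sh2). A gene was called at 2-fold. The 95% Clopper-Pearson interval of the CDK16-sh2 share of both counts was turned into a log2 ratio without the prior count. GC content and types came from GENCODE 29, and the trend was a loess surface (span 0.3) on GC content and log2 length. The code for ratios, intervals and the trend was checked on simulated counts with known answers, which says nothing of the measured differences. Named genes were CDK16 and its relatives, INHBB, COL6A3, PRC1, RB1, the 12 highest and 12 lowest, and up to 4 members of each list by interval bound, with core members of each pathway, and some further members were chosen after their values were seen. The comparison, lists and rules were chosen with earlier results of these data known. Alternatives were DESeq2 1.42.0 size factors, library totals, TMM over 3 libraries, the authors' RPKM plus 0.1, other filters, prior counts and thresholds, the trend removed and mitochondrial genes left out. The rebastinib tables were not used. Some genes and the CDK16-sh2 target sequence are not reported here.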

Additional observations from a re-analysis of the deposited data

How the results depend on the processing

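The number of genes 2-fold higher in CDK16-sh2, 1027 as reported, was 624 by library totals, 507 in the authors' RPKM, 671 among genes of at least 5 CPM and 2564 with no filter beyond 1 count. The number 2-fold lower, 1257 as reported, was 751 among genes of at least 5 CPM and 3287 with no filter, which adds genes averaging under 1 CPM. A 1.5-fold threshold gave 2843 higher and 2896 lower, a 4-fold threshold 79 and 182, and counting intervals wholly past 2-fold 533 and 708. DESeq2 size factors, TMM over 3 libraries, a prior count of 0.5, removal of the GC and length trend and removal of mitochondrial genes kept both counts within 1.5 times. With the trend removed, 76.4% of the genes called higher and 71.7% of those called lower were still called. Of the 12 shifted lists, all were shifted under both other scalings of the counts, library totals and RPKM; with no filter the E2F, NF-kB and Rb lists missed the rule, and among genes of at least 5 CPM the clustered histones turned, from -0.51 relative to the median of all genes to 1.06. Of the 187 named genes past 2-fold, 155 were still past it with the trend removed, 163 in RPKM, 166 by library totals and 186 with DESeq2 size factors, and none changed direction. No paired analysis was possible because there is 1 library a side, and for the same reason no library could be left out.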
